A study of Mus musculus with 10 samples.

Results

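The genes described here are 32 interferon-stimulated and interferon regulatory genes, taken by name from the 37447 genes of the deposited expression table. All 32 names were found, each on 1 row. The rule names the genes by their known role and sets no bound on a measured value, but the set was chosen with earlier results of these data known. The values come from 10 RNA-seq libraries of microglia, the resident immune cells of the brain, from mice aged 6 weeks. In the first group (LCM_GFP, n = 4, labelled 3 female and 1 male), GFP expressing microglia were cut with a laser out of sections of briefly fixed brainstem. GFP expressing microglia (FACS_GFP, n = 3, labelled 2 female and 1 male) and wild-type microglia of the strain C57BL/6 (FACS_WT, n = 3, labelled male) were flow sorted from dissociated tissue. The promoter that drives GFP and the strain of the GFP mice are not given in the sources used here. Fixation and the RNA extraction differed along with the isolation method, so these cannot be told apart. Levels are given in FPKM, unchanged from the deposited table: fragments scaled to transcript length and to the mapped fragments of the library.

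Interferons are secreted proteins by which infected or alerted cells warn their neighbours. Type I interferons bind a receptor of Ifnar1 and Ifnar2, and through the kinases Jak1 and Tyk2 they activate a transcription factor complex that includes Stat2 and Irf9 and binds the interferon-stimulated response element (ISRE) in the promoters of its target genes. Interferon gamma acts on promoters through the gamma-activated site (GAS). Interferon production itself is switched on by nucleic acid sensors and by the factors Irf3 and Irf7. Microglia keep a low tonic level of many interferon-stimulated genes and raise them in infection, injury and ageing.

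RefSeq promoter windows on GRCm38.p6, from 250 bases before to 50 bases after a start site, were found for 26 of the 32 genes. The ISRE core searched was GAAANNGAAA on both strands, and 14 of the 26 genes (53.8%) held it, against 3.99% of all 27025 genes with a window. The GAS core searched was TTCNNNGAA, which reads the same on both strands, and 8 of the 26 genes (30.8%) held it, against 9.55% of all genes. A match is a description of letters and not a binding site. The stretches below hold an ISRE core wholly before the start and were picked with the results known. They come from 4 genes that fell in the laser-captured libraries (Bst2, Oas1a, Gbp2 and Gbp3), Isg15, and Ifitm2, whose mean was higher there. Such stretches of Ifit1, Ifit3, Stat2 and Rsad2, none of them called lower, are not printed. The window of Irf7 held no ISRE core, and Rtp4 had no window. Capitals mark the ISRE core on either strand, overlapping copies run together, and each stretch is written 5′ to 3′ along its gene.
Bst2: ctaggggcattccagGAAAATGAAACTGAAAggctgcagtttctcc
Oas1a: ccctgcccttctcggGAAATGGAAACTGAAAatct
Gbp2: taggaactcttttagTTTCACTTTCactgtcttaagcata
Gbp3: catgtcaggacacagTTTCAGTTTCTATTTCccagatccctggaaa
Isg15: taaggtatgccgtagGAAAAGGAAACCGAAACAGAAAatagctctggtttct
Ifitm2: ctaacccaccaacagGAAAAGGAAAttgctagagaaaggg
On GRCm38.p6 these lie at chr8:71537572-71537617 (minus strand), chr5:120907526-120907560 (minus), chr3:142620589-142620628 (plus), chr3:142559984-142560029 (plus), chr4:156200860-156200911 (minus) and chr7:140955983-140956022 (minus). Isg15 has 3 overlapping cores, Bst2, Oas1a and Gbp3 have 2, and Gbp2 and Ifitm2 have 1. In Bst2 a GAS core overlaps the first ISRE core.

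The 10 libraries were not alike. The laser-captured libraries had 11075 to 12500 genes at 1 FPKM or more and the sorted ones 11706 to 11821. The steps between low FPKM values gave relative depths of 0.586 to 1.06 for the laser-captured and 0.742 to 1 for the sorted libraries, with sorted wild-type library 3 set to 1. Read counts were not used here, so the depth in reads is unknown. The laser-captured library 1, labelled female, had the Y chromosome gene Uty at 15.6 FPKM, library 3, labelled female, had Kdm5d at 5.96 FPKM, while Xist reached 3.91 FPKM in the male-labelled replicate 2 of sorted GFP, so 3 libraries go against their sex labels in part. A list of 24 microglia genes summed to 3313 to 7599 FPKM after laser capture and to 11770 to 17602 after sorting, with none of the 24 listed at 0. Neuron genes (8) summed to 646 to 1657 FPKM against 0.554 to 7.84, oligodendrocyte genes (6) to 2563 to 6660 against 21.2 to 32.8, astrocyte genes (6) to 411 to 765 against 20.7 to 32.8, and endothelial genes (6) to 72.0 to 196 against 14.0 to 24.1. Against sorted GFP 7 of the 8 neuron, all 6 oligodendrocyte, 5 of the 6 astrocyte and 5 of the 6 endothelial genes rose. Gad1, Slc1a3 and Pecam1 did not pass the test, with log2 changes of 4.10, −0.30 and −1.29. In such bulk samples fewer microglia and less RNA per microglial cell cannot be told apart.

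In the sorted microglia the medians of the 32 genes ran from 0.169 to 134 FPKM (sorted GFP), and 30 of the genes stood at 1 FPKM or more in all 3 sorted GFP libraries. Irf5 led with a median of 134 FPKM, followed by Irf3 (88.1), Irf9 (74.0) and Ifitm3 (57.3). The ranges of Irf9 and Irf3, next to each other in that order, did not overlap in the sorted GFP libraries (60.3 to 76.7 against 86.3 to 109), and Ifitm3, at 34.2 to 58.0 FPKM, ended just below Irf9. Another 13 genes had medians from 10 to 50 FPKM, 13 from 1 to 10, and Rsad2 (0.326) and Ifi44 (0.169) lay below 1. The wild-type libraries gave the same 4, 13, 13 and 2 genes in these classes of level, with Bst2 in place of Ifitm3 among the first 4. In the laser-captured libraries 3 medians were at 50 FPKM or more (Ifitm3, Irf3 and Ifitm2), 3 from 10 to 50, 11 from 1 to 10 and 15 below 1.

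**Figure D1:**
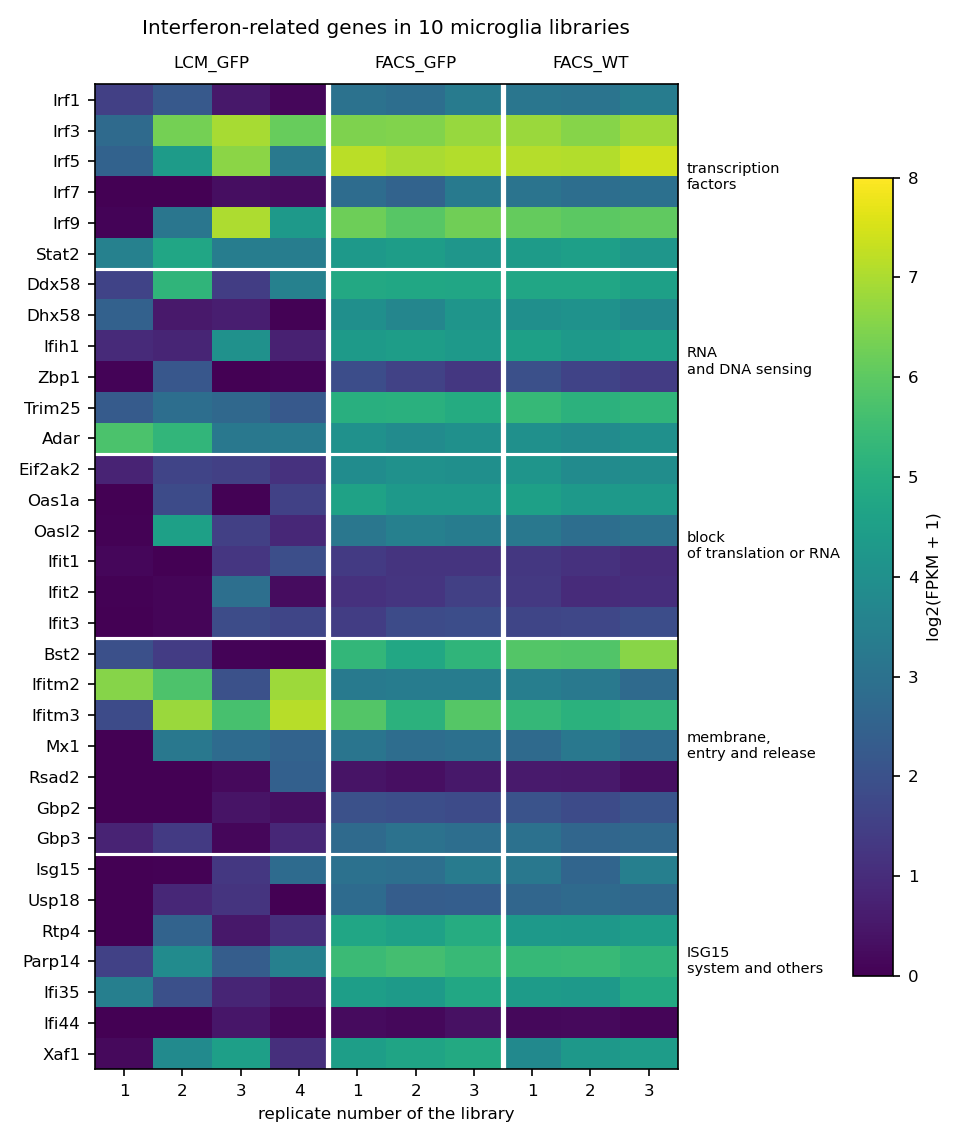
Level of each of the 32 genes (rows, grouped by role) in each of the 10 libraries (columns, numbered by replicate within the 3 groups), as log2(FPKM + 1) on a colour scale from 0 to 8. The 6 sorted libraries look alike from column to column, while the 4 laser-captured libraries are darker for most genes and differ among themselves.

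Replicates agreed far less after laser capture. Over the 30 genes that entered the tests, the median SD on the log2(FPKM + 1) scale was 1.08 in the laser-captured libraries, beside 0.964 for all 13403 genes tested. It was 0.176 (0.130 for all genes) in the sorted GFP and 0.152 (0.170) in the sorted wild-type libraries. The smallest SD after laser capture was that of Irf7 (0.163) and the largest that of Irf9 (2.87). All laser-captured values of Irf7 were below 1 FPKM, where adding 1 before the logarithm narrows the spread. Genes listed at 0 numbered 9, 5, 0 and 2 of 32 in the laser-captured libraries 1 to 4 and 0 in every sorted library. Of all 11875 genes with a mean of at least 1 FPKM in the sorted GFP libraries, 10.3%, 6.35%, 7.08% and 6.75% were listed at 0 in the same 4 libraries, against 23.3%, 10%, 0% and 6.67% of the 30 genes of this set that met that bound. A listed 0 can be a failed estimate, which was not tested. Of all 37447 genes 13661 were at 0 in all libraries.

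The first question of the design is how laser capture and sorting compare in GFP mice. Relative to the sorted GFP libraries 15 of the 30 tested genes fell in the laser-captured libraries and none rose. Those that fell were the factors Irf1, Irf5 and Irf7, the sensors Dhx58 and Ifih1 with Trim25, the effectors Eif2ak2, Oas1a, Bst2, Gbp2 and Gbp3, and Usp18, Rtp4, Parp14 and Ifi35. Of all 13403 genes tested 19.6% fell and 12.5% rose (limma on log2(FPKM + 1), two-sided, Benjamini-Hochberg adjusted p under 0.05, as for every call below). The median log2 change was −2.01 over the 30 genes and −0.60 over all genes, and 28 of the 30 values were below 0. All 4 laser-captured libraries lay below all 3 sorted GFP libraries for 16 genes, the 15 and Isg15 (31.2% of all genes), and above them for none (17% of all genes). All 30 tested genes stood at 1 FPKM or more in every sorted GFP library, while 17 were below 1 FPKM in at least 2 laser-captured libraries. The filter was thus passed through the sorted libraries, which favours a fall among the genes tested. Ifi44 and Rsad2 did not pass it. With 1 sorted GFP library left out, whichever it was, 5 of 28 tested genes were called lower in place of 15, and the share of all genes called lower dropped as well, to between 2.39% and 2.59%. With laser-captured libraries 2 and 4 only, without the 2 whose sex labels are in doubt, 16 were called lower, beside 35.4% of all 11547 genes tested in that fit, and 2 (Ifitm2 and Ifitm3) higher, beside 901 of the 11547.

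The same 15 genes fell against the sorted wild-type libraries, and again none rose, where 19.1% of all 13415 genes tested fell and 12.3% rose. The median log2 change of the 30 genes was −2.01, against −0.59 for all genes. Laser-captured libraries lay below all wild-type libraries for 15 genes (29.6% of all genes) and above them for none (16.9%). Both comparisons share the 4 laser-captured libraries, so the second adds only the other sorted group. Here too 5 genes were called lower when any 1 wild-type library was left out, beside 2.57% to 3.02% of all genes.

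**Figure D2:**
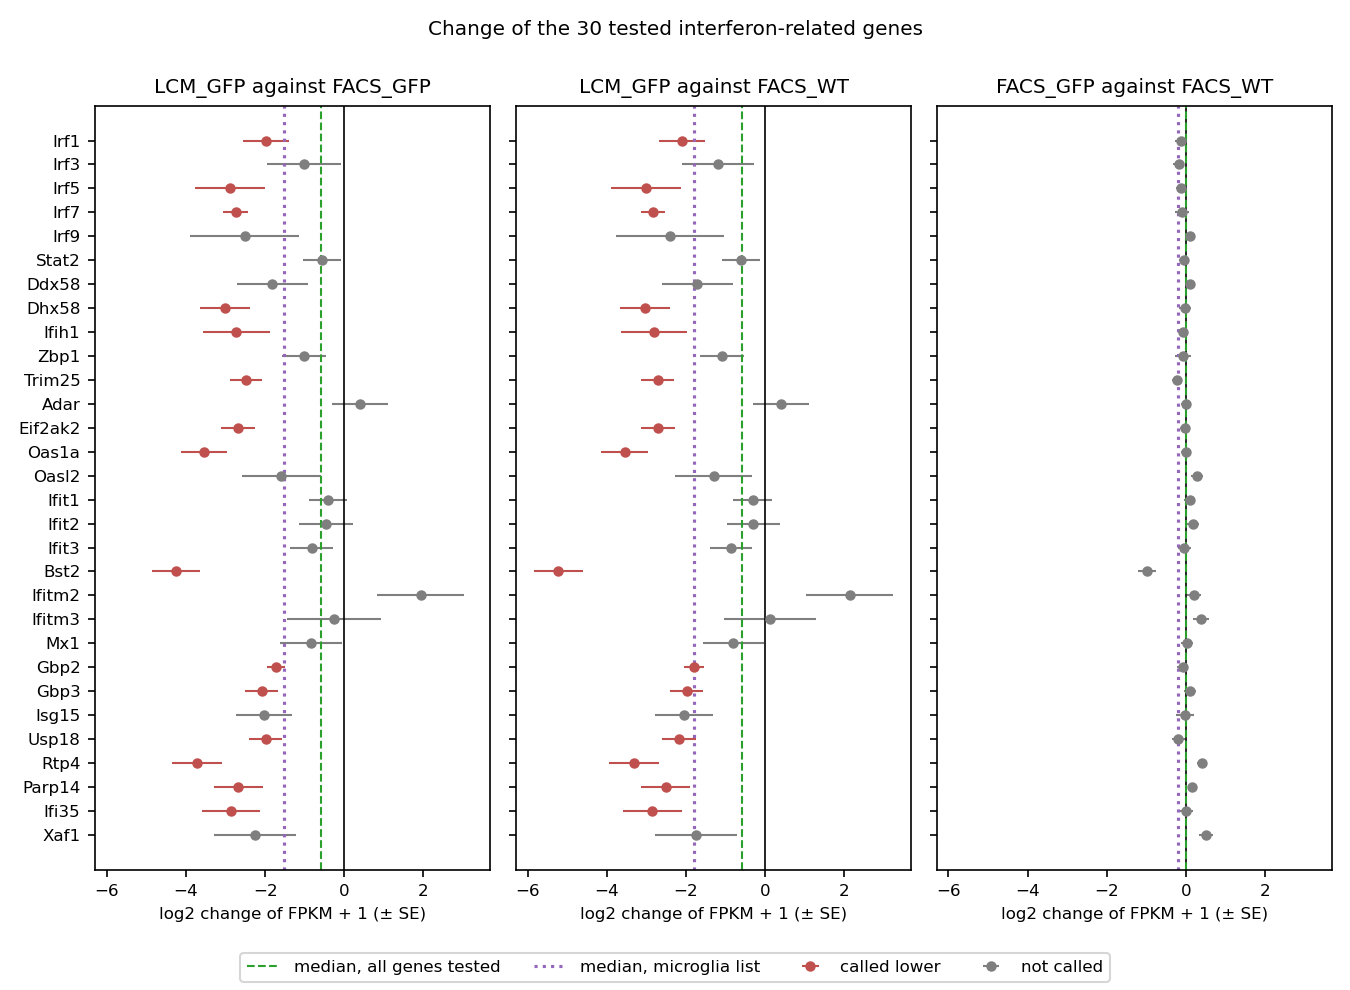
Log2 change of FPKM + 1 with its standard error for the 30 tested genes in each of the 3 comparisons; red points passed the test and grey points did not, and vertical lines mark 0 (solid), the median of all genes (dashed) and the median of the microglia list (dotted). The 15 red points lie from −4.24 to −1.73 in the first panel, and no point is red in the third.

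Interferon regulatory factors and Stat2, which switch these genes on, split into those that fell and those that did not pass the test. Irf7, the factor that amplifies interferon production (ENSMUSG00000025498, chromosome 7, 148448605 to 148452380 on mm9, as for all gene positions below), was listed at 0 in the laser-captured libraries 1 and 2 and stood at 0.229 and 0.203 FPKM in libraries 3 and 4. It stood at 6.12, 4.89 and 8.58 FPKM in the sorted GFP and at 7.48, 6.43 and 6.81 FPKM in the sorted wild-type libraries. No laser-captured library came near a sorted one. The log2 change of Irf7 was −2.74 (SE 0.313, limma adjusted p = 0.00061) against sorted GFP and −2.84 (SE 0.307, limma adjusted p = 0.000488) against sorted wild type, the smallest adjusted p of the 30 tested genes in each comparison. All laser-captured values of Irf7 were below 1 FPKM, where adding 1 before the logarithm narrows their spread. That bears on the small SE and adjusted p, and Irf7 passed the filter through the sorted libraries alone.

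Irf5, a factor of myeloid cells that acts below Toll-like receptors (chromosome 6, 29476625 to 29491869), stood at 4.71, 20.2, 97.5 and 8.40 FPKM after laser capture. Its sorted levels were 143, 126 and 134 FPKM (GFP) and 137, 133 and 171 FPKM (wild type). Laser-captured library 3 came close to the sorted range and the other 3 were far below it. Irf5 fell by 2.89 on the log2 scale (SE 0.888, limma adjusted p = 0.0399), and this call was lost in 12 of 20 alternative settings, with limma adjusted p from 0.00282 to 0.190 over all of them. It was lost without laser-captured library 1, 2 or 4 (limma adjusted p = 0.0586, 0.0646 and 0.0871) and without any 1 sorted GFP library (0.112 to 0.12). Irf1, induced early by interferon gamma (chromosome 11, 53583516 to 53591876), stood at 1.84, 3.69, 0.439 and 0.0983 FPKM after laser capture. Sorted GFP libraries had Irf1 at 7.06, 6.48 and 8.99 FPKM and wild-type libraries at 7.77, 7.43 and 9.29 FPKM. No laser-captured library reached the lowest sorted one, and the log2 change was −1.98 (SE 0.575, limma adjusted p = 0.0331). The call of Irf1 was lost in 12 of 19 settings (limma adjusted p from 0.00854 to 0.392 over all of them), among them without laser-captured library 3 or 4 (0.0570 and 0.0520) and without any 1 sorted GFP library (0.118 to 0.144).

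Irf9, the DNA-binding partner of Stat2 (chromosome 14, 56222408 to 56228867), was the most scattered gene. Its values after laser capture were 0.0521, 7.82, 127 and 18.9 FPKM, against 74.0, 60.3 and 76.7 FPKM (sorted GFP) and 67.7, 62.1 and 65.3 FPKM (sorted wild type). Library 3 was above every sorted library and the other 3 were below every one. The log2 change of −2.52 had a standard error of 1.38 (limma adjusted p = 0.192). Without the laser-captured library 3 it was −3.64 (limma adjusted p = 0.0363), and with libraries 2 and 4 only −2.42 (limma adjusted p = 0.00937), the lowest of the range up to 0.555 over its alternatives. The authors' deposited table lists Irf9 together with its neighbour Rnf31, so reads of the pair may not have been kept apart.

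Irf3, the resident factor that starts interferon production (chromosome 7, 52253018 to 52258218), stood at 5.78, 79.8, 124 and 69.6 FPKM after laser capture, at 86.3, 88.1 and 109 FPKM in the sorted GFP libraries and at 111, 93.1 and 116 FPKM in the wild-type libraries. Library 1 alone was far below the others, and the groups overlapped through library 3. For Stat2 (chromosome 10, 127707629 to 127729905) the laser-captured values were 10.4, 25.8, 9.46 and 9.52 FPKM. Sorted libraries had Stat2 at 19.1, 20.8 and 17.2 FPKM (GFP) and at 20.0, 21.7 and 17.4 FPKM (wild type), so library 2 was above all sorted libraries and the other 3 below them. Neither gene passed the test (log2 change −1.02, SE 0.926, limma adjusted p = 0.424 for Irf3, and −0.57, SE 0.473, limma adjusted p = 0.383 for Stat2).

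**Figure D3:**
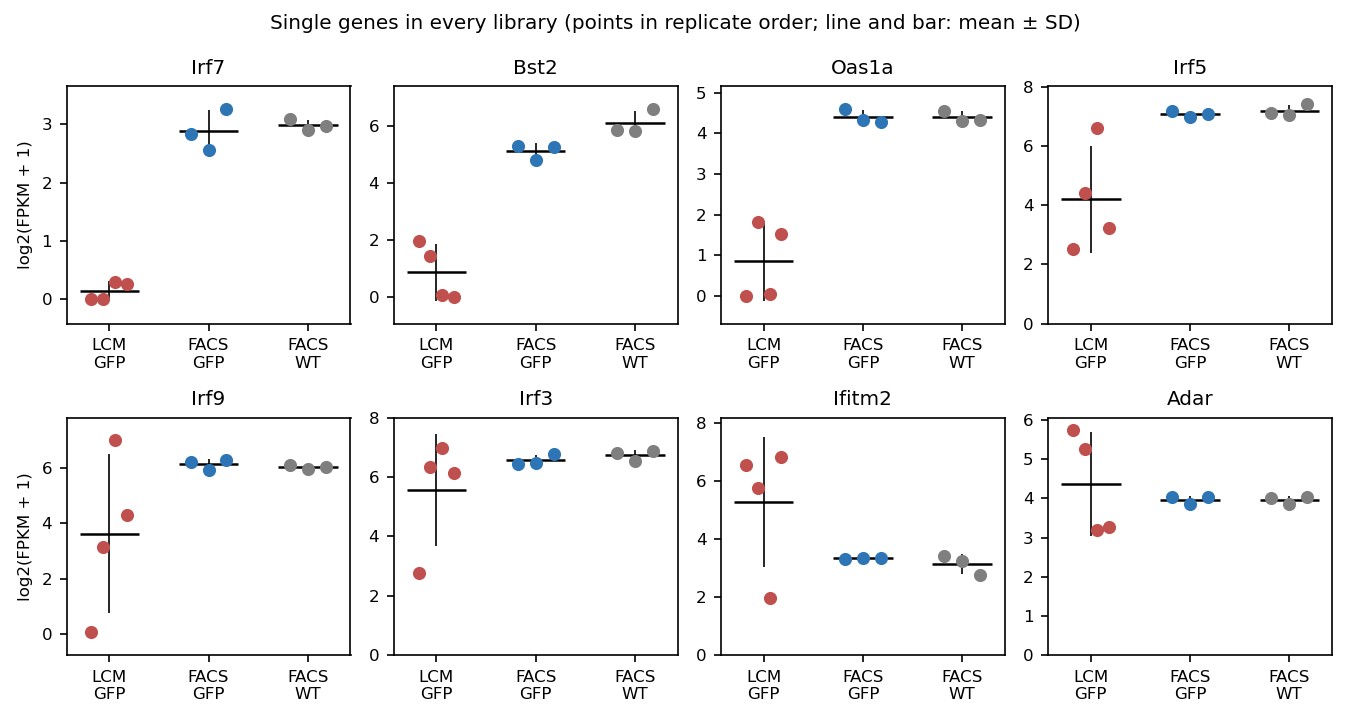
Level of 8 genes in every library as log2(FPKM + 1), with points in replicate order and the mean ± SD of each group; the scale differs between panels. Irf7, Bst2 and Oas1a are low in all 4 laser-captured libraries, Irf9 is at 0.0521 FPKM in library 1 and at 127 in library 3, and Ifitm2 is above the sorted libraries in 3 of 4.

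Among the sensors of viral nucleic acid, Dhx58 (LGP2, a regulator of the other RIG-I-like helicases; chromosome 11, 100556018 to 100565585) stood at 4.59, 0.451, 0.579 and 0.0236 FPKM after laser capture. Its sorted values were 14.9, 11.8 and 16.9 FPKM in GFP and 15.0, 16.0 and 13 FPKM in wild-type libraries, all above the highest laser-captured one. Dhx58 fell by 3.02 on the log2 scale (SE 0.631, limma adjusted p = 0.00939), and without any 1 sorted GFP library it missed the threshold (limma adjusted p from 0.0505 to 0.0631). Ifih1 (MDA5, a sensor of long double-stranded RNA; chromosome 2, 62433855 to 62484312) stood at 0.952, 0.760, 15.6 and 0.673 FPKM after laser capture. It stood at 19.4, 20.9 and 19 FPKM in sorted GFP and at 22.4, 18.5 and 21.7 FPKM in sorted wild-type libraries. As for Irf5, laser-captured library 3 was the one near the sorted level. Ifih1 fell by 2.73 (SE 0.842, limma adjusted p = 0.0402). The call of Ifih1 was lost in 12 of 20 settings (limma adjusted p from 0.000900 to 0.225), among them without laser-captured library 1, 2 or 4 (0.0667, 0.0774 and 0.0833) and without any 1 sorted GFP library (0.128 to 0.132).

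Trim25, the ubiquitin ligase that helps activate RIG-I (chromosome 11, 88860690 to 88881607), was even among replicates, at 3.96, 6.34, 5.48 and 3.66 FPKM after laser capture. Sorted GFP libraries stood at 32.2, 32.7 and 29.1 FPKM and wild-type libraries at 39.6, 34.1 and 36.9 FPKM for Trim25. The groups were wide apart, and the gene fell by 2.49 (SE 0.401, limma adjusted p = 0.00278). Ddx58 itself, which encodes RIG-I, ranged from 1.76 to 36.6 FPKM after laser capture around the 22.4 to 27.6 FPKM of the 6 sorted libraries and did not pass the test (log2 change −1.81, limma adjusted p = 0.156). Without laser-captured library 2 the change of Ddx58 was −2.57 (limma adjusted p = 0.0199, the lowest of the range up to 0.778). Zbp1, a sensor of Z-form nucleic acid, was at 3.49 FPKM in laser-captured library 2 and at most at 0.0519 in the other 3, against 1.48 to 2.88 FPKM in the sorted libraries (limma adjusted p = 0.188). Without library 2 the change of Zbp1 was −1.54 (limma adjusted p = 0.00176, the lowest of the range up to 0.623). Adar, which edits double-stranded RNA and so damps its sensing, stood at 52.6, 37.7, 8.22 and 8.60 FPKM after laser capture and at 13.4 to 15.4 FPKM in all 6 sorted libraries. The laser-captured libraries of Adar thus lay on both sides of the sorted ones, and the change of 0.40 (SE 0.710) did not pass the test (limma adjusted p = 0.690).

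Effectors that block translation or degrade RNA were also lower in part. Eif2ak2 (PKR, which halts translation on double-stranded RNA; chromosome 17, 79251904 to 79281913) stood at 0.736, 2.15, 1.88 and 1.22 FPKM after laser capture. It stood at 13.9, 15.6 and 14.8 FPKM in sorted GFP and at 16.9, 13.6 and 14.3 FPKM in sorted wild-type libraries, a fall of 2.70 on the log2 scale (SE 0.428, limma adjusted p = 0.00263). Oas1a, a synthase of the messenger that activates RNase L (ENSMUSG00000052776, chromosome 5, 121346265 to 121357536), was listed at 0 in laser-captured library 1 and at 2.54, 0.0395 and 1.90 FPKM in the others. Sorted GFP libraries had Oas1a at 23.2, 19 and 18.6 FPKM and wild-type libraries at 22.5, 18.7 and 19.2 FPKM. Both genes were far below every sorted library in all 4 laser-captured ones, and Oas1a fell by 3.55 (SE 0.590, limma adjusted p = 0.00338). How the authors treated reads shared with the close copies of the Oas1, Gbp, Ifit and Ifitm families is not given in the sources used here, so single members of these families are uncertain.

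Oasl2, of the same family as Oas1a, was at 22.3 FPKM in laser-captured library 2 and at 0.0231 to 1.84 FPKM in the other 3. After sorting it was at 6.47 to 10.1 FPKM (limma adjusted p = 0.249). Without library 2 its change was −2.52 (limma adjusted p = 0.00767, the lowest of the range up to 0.706). Ifit1, Ifit2 and Ifit3, which bind foreign RNA and block its translation, were low everywhere, at 1.00 to 2.72 FPKM in the sorted libraries but for Ifit2 at 0.968 FPKM in wild-type library 2. After laser capture Ifit1 ranged from 0 to 2.81, Ifit2 from 0.0354 to 6.52 and Ifit3 from 0 to 2.64 FPKM. None of the 3 passed the test (limma adjusted p = 0.535, 0.631 and 0.269), although without laser-captured library 3 the change of Ifit2 was −1.16 (limma adjusted p = 0.00312, the lowest of the range up to 0.940).

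Bst2, or tetherin, which holds budding virus at the cell surface (ENSMUSG00000046718, chromosome 8, 74058163 to 74061336), had the largest difference of the 30 tested genes on the log2(FPKM + 1) scale. It stood at 2.87, 1.70 and 0.0449 FPKM in laser-captured libraries 1 to 3 and was listed at 0 in library 4. The sorted GFP libraries had 38.3, 26.5 and 36.7 FPKM of Bst2 and the sorted wild-type libraries 57.0, 55.8 and 94.8 FPKM. Every laser-captured library was far below every sorted one. The log2 change of Bst2 was −4.24 (SE 0.606, limma adjusted p = 0.00168) against sorted GFP and −5.23 (SE 0.620, limma adjusted p = 0.000766) against sorted wild type.

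The guanylate-binding proteins Gbp2 and Gbp3 attack membranes around intracellular microbes. Gbp3 (chromosome 3, 142223016 to 142236173) stood at 0.743, 1.56, 0.113 and 0.862 FPKM after laser capture, at 5.73, 7.13 and 6.47 FPKM in sorted GFP and at 6.98, 5.27 and 5.55 FPKM in sorted wild-type libraries. It fell by 2.09 (SE 0.413, limma adjusted p = 0.00712, and 0.0580 to 0.0647 without any 1 sorted GFP library). Its neighbour Gbp2, at 0 to 0.345 FPKM after laser capture and 2.53 to 3.22 FPKM after sorting, fell by 1.73 (SE 0.231, limma adjusted p = 0.00112). Neither range overlapped the sorted one. Mx1, a dynamin-like GTPase, was listed at 0 in laser-captured library 1 and stood at 4.83 to 8.17 FPKM in the other 3, within or near the 5.80 to 8.25 FPKM of the sorted libraries (limma adjusted p = 0.435).

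Ifitm2 and Ifitm3 encode small membrane proteins that hinder viral entry, and Ifitm2 and Adar were the only tested genes with a change above 0 against sorted GFP. Ifitm2 (chromosome 7, 148140736 to 148141882) was at 93.1, 53.0, 2.93 and 113 FPKM after laser capture, against 8.91, 9.26 and 9.26 FPKM in sorted GFP and 9.67, 8.42 and 5.73 FPKM in sorted wild-type libraries. It was above every sorted library in 3 of 4 laser-captured libraries and below every one in library 3. The log2 change of 1.94 (SE 1.10) did not pass the test (limma adjusted p = 0.208). Without laser-captured library 3 it was 3.04 (limma adjusted p = 0.00201), the lowest adjusted p of the range up to 0.384 over its alternatives. Ifitm3 stood at 2.56, 111, 50.5 and 139 FPKM after laser capture, around the 33.6 to 58.0 FPKM of the sorted libraries (limma adjusted p = 0.882), and its direction depended on the libraries and the scaling, with log2 changes from −0.85 to 1.34 over the alternatives. Its paralog Ifitm1, from the wider pathway list, was at 0.134, 0.252, 7.86 and 33.4 FPKM after laser capture and at no more than 0.0637 FPKM in any sorted library. The 6 endothelial genes summed to 195, 72.0, 97.4 and 196 FPKM in laser-captured libraries 1 to 4, and their part in the levels of these genes was not tested.

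Isg15, a ubiquitin-like modifier, was listed at 0 in laser-captured library 1 and stood at 0.0405, 1.47 and 6.00 FPKM in libraries 2 to 4. All 4 were below the sorted GFP libraries (6.84, 6.56 and 8.99 FPKM), but library 4 was above the lowest wild-type library (8.19, 5.09 and 10.0 FPKM). The log2 change of Isg15 was −2.03 (SE 0.717) and missed the threshold (limma adjusted p = 0.0615), and without laser-captured library 4 it was −2.62 (limma adjusted p = 0.00642, the lowest of the range up to 0.478). Usp18, the protease that removes ISG15 and restrains the interferon receptor (chromosome 6, 121195924 to 121220934), was listed at 0 in laser-captured libraries 1 and 4 and at 0.862 and 1.32 FPKM in 2 and 3. It stood at 6.02, 4.09 and 4.23 FPKM in sorted GFP and at 5.19, 5.73 and 5.58 FPKM in sorted wild-type libraries, and fell by 1.99 (SE 0.416, limma adjusted p = 0.00929, and 0.0594 to 0.0753 without any 1 sorted GFP library).

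Rtp4, a receptor transporter protein (ENSMUSG00000033355, chromosome 16, 23610005 to 23614308), stood at 0.0179, 4.82, 0.424 and 1.09 FPKM after laser capture. Sorted GFP libraries had 25.7, 22.8 and 29.9 FPKM of Rtp4 and wild-type libraries 19.2, 18.4 and 20.8 FPKM. The laser-captured range ended well below the sorted one, and Rtp4 fell by 3.72 (SE 0.640, limma adjusted p = 0.00398). Parp14, an ADP-ribosyltransferase (chromosome 16, 35832960 to 35871630), stood at 1.90, 13.6, 4.13 and 10.2 FPKM after laser capture, at 42.8, 47.9 and 41.2 FPKM in sorted GFP and at 39.8, 41.2 and 36.0 FPKM in sorted wild-type libraries. It fell by 2.68 (SE 0.612, limma adjusted p = 0.0136, and 0.0722 to 0.0789 without any 1 sorted GFP library). Ifi35, a partner of the interferon-induced protein Nmi (chromosome 11, 101309721 to 101320012), stood at 10.0, 2.90, 0.768 and 0.402 FPKM after laser capture. Sorted libraries had Ifi35 at 21.5, 19.5 and 26.8 FPKM (GFP) and at 20.1, 19.2 and 28.1 FPKM (wild type), a fall of 2.87 (SE 0.737, limma adjusted p = 0.0214, and 0.0857 to 0.104 without any 1 sorted GFP library). Xaf1, which promotes apoptosis, ranged from 0.148 to 22.0 FPKM after laser capture and from 12.9 to 27.8 FPKM after sorting (limma adjusted p = 0.131). Without laser-captured library 3 the change of Xaf1 was −2.96 (limma adjusted p = 0.0483, in a range from 0.0327 to 0.460). Ifi44 stayed at or below 0.407 FPKM in every library. Rsad2, or viperin, stayed at or below 0.482 FPKM in every library but laser-captured library 4, where it was at 4.43 FPKM.

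The order of the 4 laser-captured libraries was not the same from gene to gene. Library 2 held the highest value of 12 of the 32 genes, library 3 of 11, library 4 of 5 and library 1 of 4 (Bst2, Dhx58, Ifi35 and Adar). Library 1 held the lowest value, ties counted, of 19 genes, and libraries 2, 3 and 4 of 5, 6 and 7. Library 1 also had the lowest median over the 32 genes, at 0.442 FPKM against 3.19, 1.8 and 1.56 FPKM, while the 6 sorted libraries had medians of 12.6 to 15.0 FPKM.

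Marker genes of microglia also fell after laser capture. Of the 24 microglia genes 17 fell against sorted GFP (median log2 change −1.52) and 22 against sorted wild type (median −1.79). The mean log2(FPKM + 1) of the 32 genes minus that of the microglia list was −5.56 to −4.72 after laser capture, −5.07 to −4.95 in sorted GFP and −5.43 to −5.10 in sorted wild-type libraries. The laser-captured range of this difference spanned both sorted ranges. Laser-captured libraries 2 and 3, with mean microglia levels of 7.72 and 7.70, had mean levels of the 32 genes of 2.43 and 2.14, and libraries 1 and 4, with 6.5 and 6.72, had 1.28 and 2.00.

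**Figure D4:**
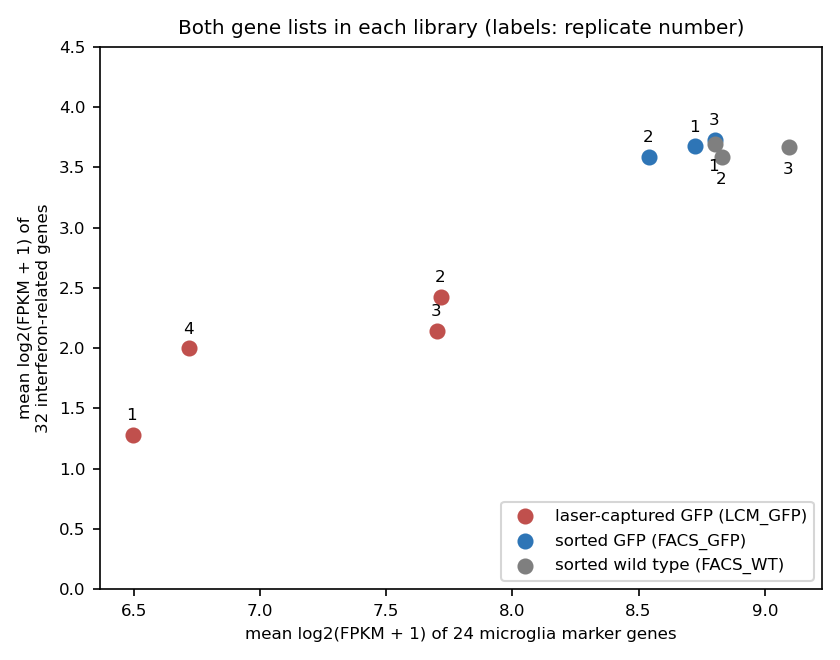
Mean log2(FPKM + 1) of the 32 interferon-related genes (vertical axis) against that of 24 microglia genes (horizontal axis, which does not start at 0) in each of the 10 libraries, numbered by replicate. The 6 sorted libraries sit together at 3.59 to 3.73 on the vertical axis, and the 4 laser-captured libraries lie lower on both axes.

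When the libraries were scaled to the same mean of the microglia list, 5 of the 30 genes remained lower against sorted GFP, with all genes at 4.36% lower and 17.4% higher under that scaling. These were Irf7 (log2 change −1.95, limma adjusted p = 0.00369), Bst2 (−3.12, limma adjusted p = 0.0261), Rtp4 (−2.68, limma adjusted p = 0.0296), Oas1a (−2.51, limma adjusted p = 0.0416) and Gbp2 (−1.07, limma adjusted p = 0.0201). Against sorted wild type Irf7, Bst2 and Gbp2 remained (3.81% of all genes lower). This scaling moved the median of all genes from −0.60 to 0.67, and the median of the 30 genes from −2.01 to −1.05, with 22 of 30 values below 0. The scaled values of Irf3, Stat2, Mx1, Ifit1, Ifit2 and Ifitm3 were above 0, so their direction depends on the scaling, and none of these 6 passed the test at either scaling. On the log2(FPKM + 1) scale the fall of genes with low FPKM is understated, and most of the 32 genes were far less abundant than the microglia list.

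**Figure D5:**
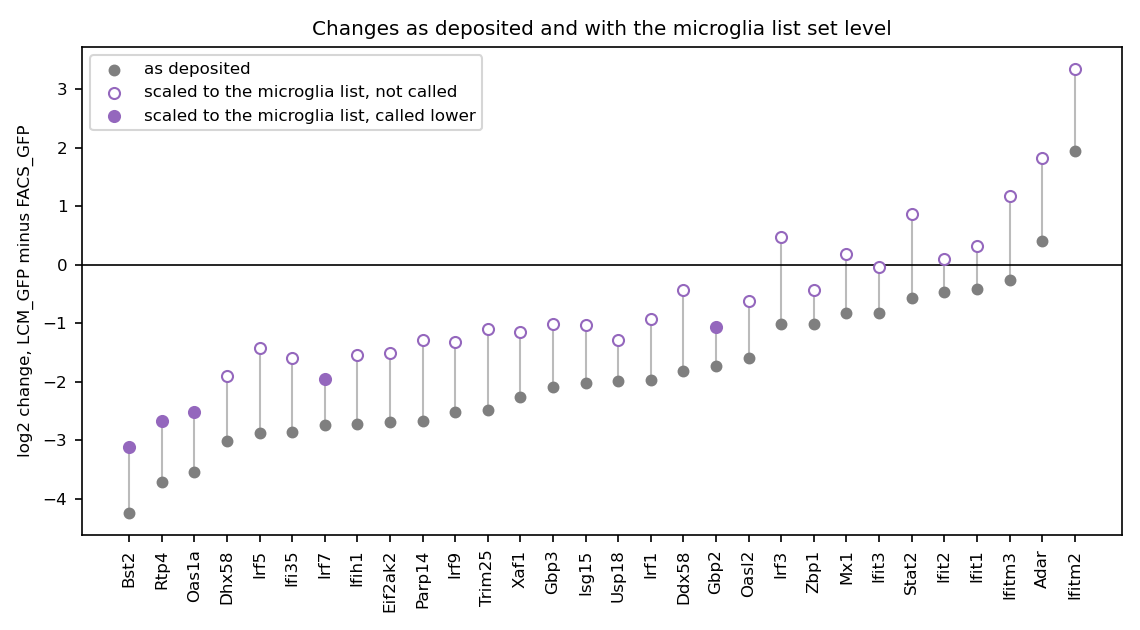
Log2 change between the laser-captured and sorted GFP libraries for the 30 tested genes, as deposited (grey) and with the mean of the microglia list set level in every library (purple, filled where the test was passed). Every gene moves upward, and Bst2, Rtp4, Oas1a, Irf7 and Gbp2 remain past the test.

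The rest of the pathway was read from 4 further lists. The interferons themselves were at or near 0: none of 9 ligands entered a test, Ifng and Il28a were listed at 0 in all 10 libraries, and the highest value of any ligand was 1.36 FPKM, of Ifnk in sorted wild-type library 1. Ifnb1 reached 0.318 and Ifna2 0.558 FPKM, both in sorted GFP library 2. Of 14 tested receptor and signalling genes 9 fell against sorted GFP (median −1.56) and 8 against sorted wild type (median −1.45). Ifngr1, the ligand-binding chain of the interferon gamma receptor, stood at 23.4, 109, 139 and 60.4 FPKM after laser capture and at 323, 336 and 363 FPKM in sorted GFP libraries (log2 change −2.30, limma adjusted p = 0.0198). Ifngr2, its signalling chain, was at 12.2 to 40.6 against 158 to 191 FPKM (−2.61, limma adjusted p = 0.00433). Ptpn6, a phosphatase that restrains cytokine receptors, was at 59.6 to 281 against 594 to 1606 FPKM (−2.77, limma adjusted p = 0.0101), while against the wild-type libraries, at 268 to 614 FPKM, it did not pass the test (limma adjusted p = 0.0943).

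Of 13 tested genes of interferon induction 7 fell against sorted GFP (median −1.51) and 8 against sorted wild type (median −1.49). Tlr9, a receptor for unmethylated DNA, was at 23.5 to 137 FPKM after laser capture and at 203 to 223 FPKM in sorted GFP libraries and missed the threshold there (limma adjusted p = 0.0518). Tmem173 (STING, the adaptor of cytosolic DNA sensing) was at 5.97 to 76.1 against 191 to 220 FPKM (−2.55, limma adjusted p = 0.0422), and Tlr7, a receptor for single-stranded RNA, at 33.8 to 98.9 against 157 to 191 FPKM (−1.51, limma adjusted p = 0.0234). Of 42 further interferon-stimulated genes tested 28 fell against sorted GFP (median −2.18), and against sorted wild type 25 of 40 (median −2.36). Slfn8, of the Schlafen family, was at 30.4 to 61.6 against 193 to 224 FPKM (−2.08, limma adjusted p = 0.00299), and Uba7, which activates ISG15, at 10.4 to 59.5 against 171 to 202 FPKM (−2.86, limma adjusted p = 0.00955). Lgals9, a secreted galectin, was at 6.06 to 214 against 249 to 330 FPKM and did not pass the test (limma adjusted p = 0.0853). No tested gene of these lists rose in either comparison, and Ifitm1, whose laser-captured values all lay above the sorted ones, did not pass the filter. Over all 69 pathway genes tested 44 fell against sorted GFP (median −2.01), where 19.6% of all genes fell with a median of −0.60. Over 67 tested 41 fell against sorted wild type (median −1.91), where 19.1% of all genes fell with a median of −0.59. Scaled to the microglia list 9 and 7 pathway genes were called lower in these comparisons (4.36% and 3.81% of all genes). Without any 1 sorted library 5 or 6 were lower against sorted GFP and 4 or 5 against sorted wild type. The shares of all genes were then 2.39% to 2.59% and 2.57% to 3.02%. Some tested pathway genes, such as Isg20, passed the filter through the sorted libraries alone, which favours a fall.

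Immediate early genes and markers of other immune cells were read from the same fits. All 7 immediate early genes fell against sorted GFP (median log2 change −4.30), with sums of 25.9 to 102 FPKM after laser capture and 1155 to 2191 FPKM in the sorted libraries. The 6 perivascular macrophage genes summed to 1.18 to 18.1 against 21.1 to 47.0 FPKM, and 2 of 5 tested fell (Mrc1 and Pf4). The 9 blood leukocyte genes summed to 0.101 to 31.4 against 36.1 to 75.0 FPKM, and 1 of 2 tested fell (Cd79b). Their part in the levels of the 32 genes was not tested.

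The ISRE core was found both in genes that fell and in genes that did not pass the test. Of the 11 genes called lower that have a promoter window, 6 held the core, and of the 13 tested genes that were not called 7 held it. The GAS core was held by 5 of the 11 and 3 of the 13. Among the printed stretches, those of Bst2, Oas1a, Gbp2 and Gbp3 belong to genes that fell, and those of Isg15 and Ifitm2 to genes that did not pass the test.

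The second question, whether the sorted GFP and wild-type microglia differ, gave no called gene among the 30 tested, beside 0.0339% of all 11814 genes higher and 0.0762% lower. At an unadjusted p under 0.05 there were 3 of the 30 (Bst2, Rtp4 and Xaf1), beside 1552 of all 11814 genes. None of the 30 passed the test in any alternative run. The median log2 change was −0.01 over the 30 genes and 0.00 over all genes. Sorted GFP libraries lay above all wild-type libraries for Rtp4, Xaf1 and Parp14 (11.5% of all genes) and below them for Bst2 and Trim25 (9.29% of all genes).

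Bst2 differed most, at 33.8 ± 6.37 FPKM (SD, n = 3) in sorted GFP and 69.2 ± 22.1 FPKM (SD, n = 3) in sorted wild-type libraries, a log2 change of −0.98 (SE 0.223, limma adjusted p = 0.244, and 0.0808 to 1.00 over the alternatives). Sorted wild-type library 3, at 94.8 FPKM, was the highest of all 10. For Xaf1 the change was 0.51 (SE 0.18, limma adjusted p = 0.319) and for Rtp4 0.40 (SE 0.129, limma adjusted p = 0.290). All 3 wild-type libraries are labelled male and 2 of the 3 sorted GFP libraries female, so genotype and sex are confounded in part. The pathway lists gave no call either in this comparison (0 of 69 tested).

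The authors' deposited table, made with its own test, tested 31 of the 32 genes. It called none of them between laser-captured and sorted GFP libraries at a q-value under 0.05 (5.13% of its tested genes) and none between laser-captured and sorted wild-type libraries (5.01%). Of the 31 genes in the authors' deposited table, 5 had an unadjusted p under 0.05 in each of those comparisons. The largest of these in size was Bst2, with a log2 fold of −5.22 for laser-captured over sorted GFP (q = 0.239). Rtp4, Gbp2 and Parp14 were also lower after laser capture, and Ifitm2 was higher (log2 fold 2.43, q = 0.293). Irf7, with the smallest limma adjusted p, had a log2 fold of −6.29 and an unadjusted p of 0.690 in the authors' test. Between the sorted groups the authors' deposited table called 1 gene of the 31, Bst2, with a log2 fold of 0.98 for wild type over GFP and q = 0.00148 (0.321% of its tested genes were called).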

How the data were processed

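RNA-seq of 10 libraries was used (LCM_GFP, n = 4; FACS_GFP, n = 3; FACS_WT, n = 3), which the labels call biological replicates, so p-values measure the spread between them. Per the submitters' processing notes, the build was mm9 and the authors' tools were Cufflinks 2.0.2, Bowtie2 2.0.0, TopHat2 2.0.4 and CASAVA 1.8.2; the annotation release and the treatment of reads with several matches are not given in the sources used here. The deposited FPKM values of 37447 genes were used as the authors gave them. The other deposited table, a set of pairwise comparisons per the file headers, gives the authors' log2 fold changes, p-values and q-values; its group means were not used. No read counts were used, so no counting intervals were computed.

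The 32 genes, the pathway and marker lists and the tests were chosen with earlier results of these data known. A gene entered a test where 3 or more of the libraries compared had 1 FPKM or more. The test was limma 3.58.1 on log2(FPKM + 1) (trend and robust moderation, statmod 1.5.0, R 4.3.3), 2 groups per fit, two-sided, with Benjamini-Hochberg adjustment over all genes tested and a threshold of 0.05. The fit was tested on simulated data with normal errors, in which only genes with a mean log2(FPKM + 1) above 4 were changed. Changes of genes at lower levels, such as Irf7 and Gbp2, were not simulated. Values in every library are given for called genes with a mean of at least 5 FPKM in the higher group, for Irf1, Irf3, Irf5, Irf7, Irf9 and Stat2, and for others where the text dwells on them, which were chosen after their values were seen (Ifitm1, Ifitm2, Ifitm3, Adar and Isg15); of each pathway list the 3 genes with the highest mean are named. Irf8 and Ifi27 of the lists found no match and were left out. Promoters came from RefSeq (GRCm38.p6) and were searched for the 2 cores. Alternatives were 2 other pseudocounts (0.1 and 5), 2 other filters, 3 other scalings, 3 other limma fits, sex or the replicate number as a covariate, each library left out, and laser-captured libraries 2 and 4 only. Summaries used pandas 2.3.3 and numpy 2.4.6 under Python 3.11.15, and figures matplotlib 3.10.9.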

Additional observations from a re-analysis of the deposited data

Results flagged for a closer look

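In 9 of the 32 genes 1 of the 4 laser-captured libraries stood so far above the other 3 that its gap to the nearest, as a share of the whole range, exceeded the 95% limit of Dixon's test for 4 values. For values with a normal spread chance gives such a gap in about 1 in 20 groups, but FPKM are skewed and cannot go below 0. By the same rule 17.3% of all 13403 genes tested against sorted GFP had 1 laser-captured library that far above the rest and 0.843% had 1 that far below. No gene had a lowest library that far apart, and the sorted groups of 3 were not tested. In laser-captured library 3 these were Irf9 at 127 FPKM, Irf5 at 97.5 FPKM, Ifih1 at 15.6 FPKM and Ifit2 at 6.52 FPKM. In library 2 they were Stat2 at 25.8 FPKM, Oasl2 at 22.3 FPKM and Zbp1 at 3.49 FPKM. Library 1 had Dhx58 at 4.59 FPKM and library 4 had Rsad2 at 4.43 FPKM. Of the 9 genes, Irf9, Stat2, Oasl2, Zbp1, Ifit2 and Rsad2 were above every sorted library in that 1 library, and Irf5, Ifih1 and Dhx58 were below every one.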

How the results depend on the processing

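No called gene changed direction in any alternative run. The calls of Irf7, Gbp2, Rtp4, Bst2 and Oas1a (5 of 15) against sorted GFP and of Irf7, Gbp2 and Bst2 (3 of 15) against sorted wild type held in every alternative that tested them. Irf7 and Gbp2 were tested in 16 alternatives in each comparison, and Bst2 in 20. Below 1 FPKM in all 4 laser-captured libraries, Irf7 and Gbp2 left the test whenever 1 sorted library was left out. Trim25 and Eif2ak2 kept their calls in those runs and lost them only when scaled to the microglia list. Genes lower against sorted GFP numbered 15, and 5 when scaled to the microglia list (19.6% and 4.36% of all genes). Leaving out 1 laser-captured library gave 13 to 17 (21.2% to 26.1% of all genes). Leaving out any 1 of the 3 sorted GFP libraries gave 5 (2.39% to 2.59% of all genes). Against sorted wild type they numbered 15, 3 when scaled to the microglia list and 5 with sex as a covariate. The shares of all genes called lower in these runs were 19.1%, 3.81% and 6.54%. Of the libraries labelled female 2 carry Y chromosome transcripts, and the wild-type libraries are all male. Against sorted wild type, leaving out 1 laser-captured library gave 14 to 16 genes lower (19.9% to 25.0% of all genes). Leaving out any 1 of the 3 wild-type libraries gave 5 (2.57% to 3.02% of all genes). Genes higher numbered 0 in the reported fits. Against sorted GFP there was 1 (Ifitm2) with separate spreads in the groups and 2 (Ifitm2 and Ifitm3) with laser-captured libraries 2 and 4 only, and leaving out 1 library gave 0 to 1. Of all genes tested 2082 of 13403 rose with separate spreads and 901 of 11547 with libraries 2 and 4 only. The 1 gene with a library left out came without laser-captured library 3, beside 1626 of all 12831 genes. Against sorted wild type there were 2 (the same pair) with laser-captured libraries 2 and 4 only, beside 888 of all 11586 genes. Leaving out 1 library gave 0 to 1 there. It was 1 without laser-captured library 1 (1990 of all 13044 genes) and without library 3 (1594 of all 12838). Pathway genes lower numbered 44 against sorted GFP, 26 under median ratio scaling and 9 scaled to the microglia list. They numbered 40 to 46 without 1 laser-captured library and 5 or 6 without a sorted one, beside the shares of all genes given above. Under median ratio scaling 10.1% of all genes were lower in this comparison. Against sorted wild type the pathway genes lower numbered 41, 24 under median ratio scaling (10.1% of all genes), 7 scaled to the microglia list and 8 with sex as a covariate. They numbered 34 to 44 without 1 laser-captured library and 4 or 5 without a sorted one, again beside the shares given above. Scaled to the microglia list 1 pathway gene was higher, beside 20.2% of all genes. The share of higher among all called genes against sorted GFP was 39.0%, 57.9% under median ratio scaling and 80.0% scaled to the microglia list. Other causes were not tested.

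Genes that missed the test turned direction in places. Scaled to the microglia list the log2 change against sorted GFP was 0.18 for Mx1, 0.46 for Irf3, 1.17 for Ifitm3, 0.31 for Ifit1, 0.86 for Stat2 and 0.10 for Ifit2. Against sorted wild type it was 0.37 for Mx1, 0.51 for Irf3, 0.47 for Ifit1, 1.02 for Stat2, 0.30 for Ifit2 and 0.041 for Ifit3. With sex as a covariate it was 0.26 for Mx1, 0.50 for Zbp1, 1.5 for Oasl2, 0.37 for Stat2 and 0.57 for Ddx58 against sorted wild type. For Ifitm3 against sorted GFP it was 0.26 under median ratio scaling, 0.041 under quantile normalization, −0.85 to 0.91 without 1 library (0.91 without laser-captured library 1) and 1.34 with libraries 2 and 4 only; against sorted wild type it was −0.46 with the replicate block and −0.46 to 1.30 without 1 library (−0.35 without laser-captured library 2, −0.46 without library 4 and 1.30 without library 1). Without 1 library Adar was at −0.056 to 0.79 against sorted GFP and at −0.057 to 0.79 against sorted wild type, the negative values being without laser-captured library 1, and Ifit2 at 0.015 with a pseudocount of 5 against sorted wild type. The cause was not tested.

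Deviations of libraries that share a replicate number correlated across genes at −0.0401 to 0.214 over the 9 pairs. With a laser-captured library in the pair the values were −0.0401 to 0.00635. Between the sorted groups they were 0.141, 0.0102 and 0.214, against −0.224 to 0.0885 for pairs with different numbers. So few pairs cannot decide whether the numbers pair the sorted libraries. With the replicate block 12 genes were lower against sorted GFP and 13 against sorted wild type, and 33 and 29 pathway genes were lower. Of all genes 14.4% and 14.2% were lower in these fits.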
